A study of Mus musculus with 2 samples.

Results

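The genes described here make MHC class I molecules and supply them with peptides: the light chain B2m, the heavy chains H2-Q1, H2-Q7, H2-T23 and H2-M3, the peptide transporter subunit Tap2 and the loading factor Tapbp. They are 7 genes, each with 1 named probe, of 9985 measured genes on the array. Kidney RNA came from 1 control mouse (Mxi1 +/+) and 1 experimental mouse (Mxi1 -/-), and each RNA was hybridised to 1 single-colour CodeLink array. Both mice carry the label 1Y. The sources used here do not give sex, strain or the design of the Mxi1 allele. The members were chosen by gene family with their readings in these arrays known, after MHC genes had been seen to read higher in Mxi1 -/-, so every difference between the genotypes below is a description and none is tested. With 1 mouse per genotype there is also no spread between animals to set a difference against.

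An MHC class I molecule consists of a polymorphic or conserved heavy chain, the invariant light chain beta-2 microglobulin and a short peptide. Peptides are cut by proteasomes in the cytosol, carried into the endoplasmic reticulum by the transporter TAP and placed in the groove of the heavy chain with the help of tapasin. Nearly all nucleated cells carry class I at their surface for inspection by CD8 T cells and natural killer cells, and interferon-gamma is known to raise most steps of the pathway, in kidney tubules as in other cells.

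Readings are the deposited linear intensities. The median over all probes was 0.929 in Mxi1 +/+ and 0.935 in Mxi1 -/-, and a noise floor, set at 3 times the root mean square of each array's values below 0, was 0.102 and 0.156. Differences are log2 of Mxi1 -/- minus log2 of Mxi1 +/+ after centring each array on its median, so positive values are higher in Mxi1 -/-. The only error available is technical, and it is the disagreement between 2 probes of a gene on the same 2 arrays. A difference in RNA, labelling or hybridisation that both probes share does not enter it. In 41 genes measured by 2 probes whose mean levels both reached the median of all probes, the SD of the log2 difference was 0.167 per probe. In 40 genes with both probes below that median it was 0.959. The Mxi1 probe itself was 2.54-fold lower in the library labelled Mxi1 -/- (4.31 against 1.69). All 6 measured kidney tubule markers lay above the floor in both arrays, led by the kidney cadherin Cdh16, which read 125 in Mxi1 +/+ and 109 in Mxi1 -/-.

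The upstream sequences of the members are shown first, because the class I genes share a known arrangement of regulatory sites: an NF-kB site, an interferon response element, a cyclic AMP response core and a Y box. The RefSeq promoter table (GRCm38.p6) held 5 of the 7 members, without H2-Q1 and Tap2. The 180 bases from 200 to 21 before each gene start are printed 5′ to 3′ in the direction of transcription. They lie at chr2:122147487-122147666 on the plus strand for B2m, chr17:35438955-35439134 on the plus strand for H2-Q7, chr17:36032722-36032901 on the minus strand for H2-T23, chr17:37270034-37270213 on the plus strand for H2-M3 and chr17:33919278-33919457 on the plus strand for Tapbp. Capitals mark matches, on either strand, to GAAANNGAA or GAANNGAAA (interferon response core), TGACG (cyclic AMP response core), CCAAT (Y box core) or GGGNNTTCC (NF-kB-like). The gamma-activated site TTCNNNGAA was also searched. The spelling GAANNGAAA was added after the sequences had been seen.
B2m: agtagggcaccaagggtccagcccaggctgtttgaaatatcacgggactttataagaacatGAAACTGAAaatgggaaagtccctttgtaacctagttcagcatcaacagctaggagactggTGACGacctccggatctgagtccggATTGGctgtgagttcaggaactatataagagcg
H2-Q7: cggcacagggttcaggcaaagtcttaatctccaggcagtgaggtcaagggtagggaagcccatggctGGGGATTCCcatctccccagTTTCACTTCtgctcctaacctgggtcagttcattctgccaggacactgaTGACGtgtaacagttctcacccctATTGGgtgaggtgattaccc
H2-T23: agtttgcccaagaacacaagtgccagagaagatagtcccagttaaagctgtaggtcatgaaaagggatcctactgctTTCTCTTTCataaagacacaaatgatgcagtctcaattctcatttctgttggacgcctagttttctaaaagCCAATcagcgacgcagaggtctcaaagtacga
H2-M3: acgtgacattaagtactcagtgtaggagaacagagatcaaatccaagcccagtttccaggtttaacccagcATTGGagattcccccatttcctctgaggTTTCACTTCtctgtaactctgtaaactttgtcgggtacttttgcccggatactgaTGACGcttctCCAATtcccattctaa
Tapbp: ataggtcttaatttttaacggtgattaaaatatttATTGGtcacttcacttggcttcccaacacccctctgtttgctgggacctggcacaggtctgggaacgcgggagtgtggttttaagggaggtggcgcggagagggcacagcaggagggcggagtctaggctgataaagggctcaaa

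Counting back from the gene start, B2m held the interferon core at -139 to -131, TGACG at -78 to -74 and CCAAT, on the minus strand, at -53 to -49. H2-Q7 held matches of the same 3 kinds in the same order. Its interferon core lay at -113 to -105, TGACG at -64 to -60 and CCAAT at -40 to -36. A NF-kB-like match lay at -133 to -125 in front of them. H2-M3 had the interferon core at -101 to -93, TGACG at -46 to -42, and CCAAT at -36 to -32 and again at -129 to -125. H2-T23 had the interferon core at -123 to -115 and CCAAT at -52 to -48, with no TGACG in the window. The cores of H2-Q7 and H2-M3 matched only GAANNGAAA, the spelling added after the sequences had been seen. Those of B2m and H2-T23 matched GAAANNGAA. The interferon core matched on the plus strand in B2m and on the minus strand in H2-Q7, H2-M3 and H2-T23. TGACG matched on the plus strand wherever it was found. In Tapbp the only match of these searches was CCAAT at -165 to -161. The gamma-activated site matched in none of the 5 windows. Over all 32851 promoter windows of the same length, either spelling of the interferon core was found in 8.93%, TGACG in 13.7%, CCAAT in 27.5%, GGGNNTTCC in 3.62% and TTCNNNGAA in 4.93%. The interferon core, TGACG and CCAAT stood together in 0.326% of windows, counting either spelling and any order. Without the spelling added after the sequences had been seen, B2m alone of the members held all 3. No share for that case was computed. These matches describe letters, and no binding was measured here.

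**Figure D1:**
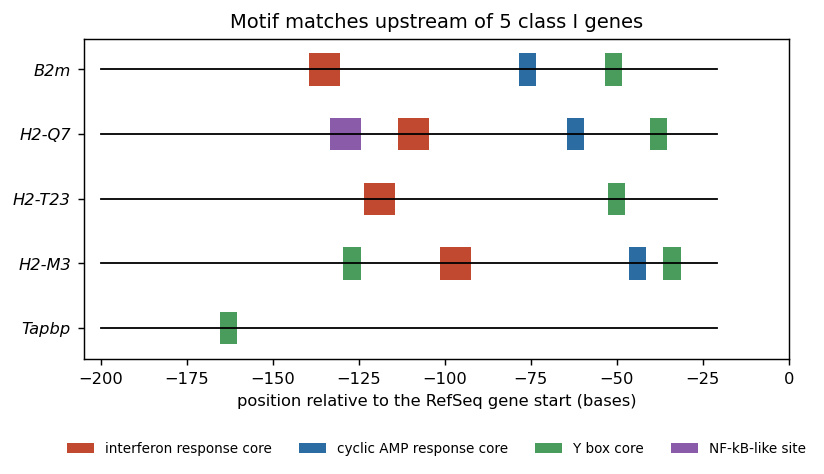
Positions of motif matches (coloured boxes) in the window from 200 to 21 bases before the gene start (black line), for the 5 members in the promoter table; the x axis is the position in bases relative to the start. In B2m, H2-Q7 and H2-M3 the interferon core is followed by the cyclic AMP response core and a Y box core, while the only match in Tapbp is a Y box core at -165 to -161. In H2-Q7 and H2-M3 the interferon core matches only the spelling added after the sequences had been seen.

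The light chain gene B2m, which every class I heavy chain needs to fold and reach the surface, read 243 in Mxi1 +/+ and 359.5 in Mxi1 -/-. That is 1.48-fold higher (log2 0.57) in Mxi1 -/-. Its probe lies far above both floors, where probe pairs differ little. The difference is larger than the technical SD of 0.167, which does not cover differences shared by the probes of an array. Genes whose mean level reached the median of all probes, here called the brighter genes, numbered 5737, and 2.51% of them differed at least as far upward. B2m lies on chromosome 2, while the other 6 members lie on chromosome 17, where the mouse MHC is found.

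The 4 heavy chains are all non-classical, that is, less polymorphic than the transplantation antigens. H2-M3, which binds peptides that begin with N-formyl methionine and shows them to T cells, read 3.57 in Mxi1 +/+ and 6.08 in Mxi1 -/-. It was 1.71-fold higher (log2 0.77), and 1.17% of the same brighter genes differed at least as far upward. H2-Q1, a chain of the Q region, read 1.90 in Mxi1 +/+ and 2.69 in Mxi1 -/-, 1.41-fold higher (log2 0.50). For it the share of genes as far upward was 3.33%.

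H2-Q7 and H2-T23 showed the largest log2 differences of the 7, but at levels where readings scatter most. H2-Q7, a chain of the Qa-2 antigen, read 0.397 in Mxi1 +/+ and 1.24 in Mxi1 -/-, 3.13-fold higher (log2 1.65). H2-T23 encodes Qa-1, which presents leader peptides of other class I chains to natural killer receptors. It read 0.167 in Mxi1 +/+, near that array's floor of 0.102, and 0.467 in Mxi1 -/-, 2.79-fold higher (log2 1.48). Both had mean levels below the median of all probes. Of the 4248 genes below that level, 5.58% differed at least as far upward as H2-Q7 and 6.94% as far as H2-T23. Neither difference reached 2 technical SDs of 0.959.

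Peptide supply was represented by Tap2 and Tapbp. Tap2, a subunit of the TAP transporter, read 5.31 in Mxi1 +/+ and 9.21 in Mxi1 -/-, 1.74-fold higher (log2 0.80), and 1.10% of the brighter genes differed at least as far upward. Tapbp, tapasin, which bridges TAP and the heavy chain, read 0.122 and 0.146. The latter is under the floor of the Mxi1 -/- array, so Tapbp has no resolved direction.

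**Figure D2:**
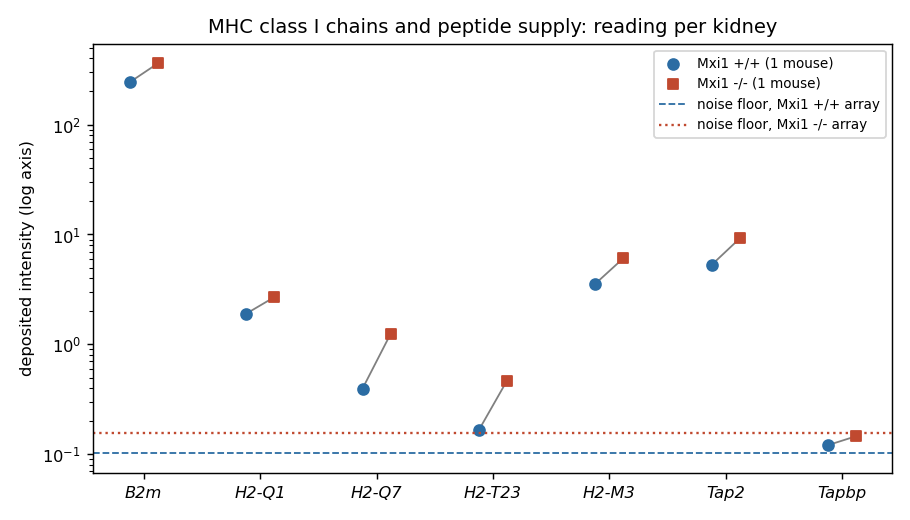
Deposited intensity (y axis, log scale) of the 7 members in the Mxi1 +/+ kidney (circles) and the Mxi1 -/- kidney (squares), 1 mouse each, with a grey line joining the readings of a gene and the noise floors as horizontal lines. The lines of the 6 members above both floors slope upward, and Tapbp, whose Mxi1 -/- reading lies under its floor, is not resolved.

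Among the 4 brighter members (B2m, H2-Q1, H2-M3 and Tap2) the log2 differences ran from 0.50 to 0.80, a range of 0.298, against a technical SD of 0.236 for a difference between 2 probes. Tap2 and H2-M3 differed from each other by 0.0254 and B2m and H2-Q1 by 0.0695, so neither neighbouring pair can be ordered. H2-M3 exceeded B2m by 0.203, also within that SD. Tap2 exceeded H2-Q1 by 0.298, which is more than 1 such SD. For the dim pair H2-Q7 and H2-T23 the gap was 0.163, against an SD of 1.36 at their level.

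As a group 6 members read higher in Mxi1 -/- with both readings above the floor, and Tapbp was not resolved. The median log2 difference, with Tapbp at its measured value, was 0.77. Over all 9985 genes the median was -0.05, and 44.5% read higher. At least 2-fold higher were 2 members, H2-Q7 and H2-T23, against 5.77% of all genes and 12.8% of genes below the median level. None of the 4 brighter members passed 2-fold, as 0.558% of such genes did. At 1.5-fold the count was 4 of 7, against 10.8% of all genes. It was 2 of the 4 brighter members, H2-M3 and Tap2, against 2.41% of the brighter genes. The members were chosen on this contrast, so these shares only place them. In whole kidney RNA more cells of a type and more RNA per cell cannot be told apart. The 3 genes outside the lists with a log2 difference nearest to the members' median, over 2 arrays, were Purb (0.77), Mgp (0.78) and Etv1 (0.76), and 48 such genes lay within 0.1 of it.

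**Figure D3:**
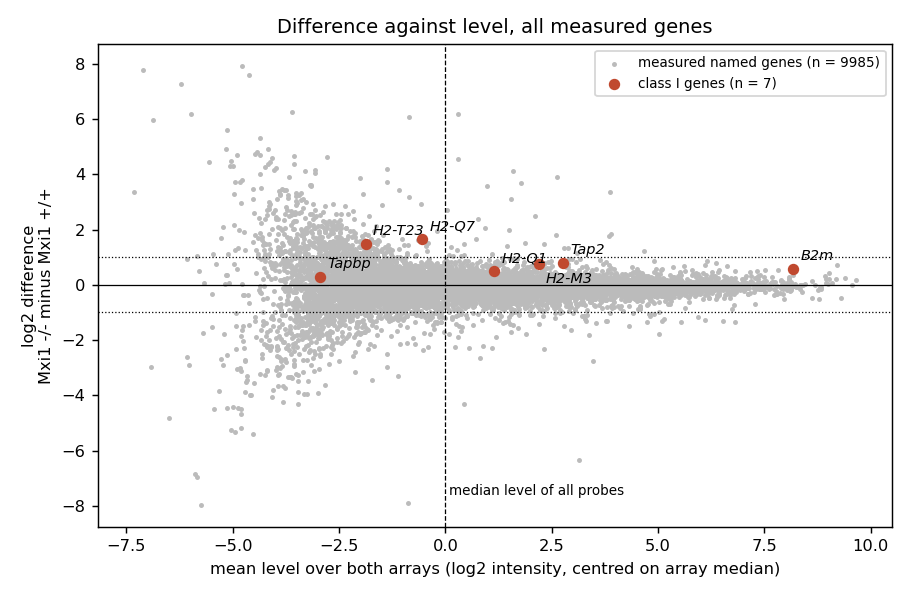
Log2 difference, Mxi1 -/- minus Mxi1 +/+ (y axis), against mean log2 level (x axis) for 9985 measured genes (grey) and the 7 members (red, labelled); dotted lines mark 2-fold and the dashed line the median level of all probes. The scatter widens to the left, where Tapbp, H2-T23 and H2-Q7 lie, and B2m lies at the bright end at 0.57.

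Other class I heavy chains with a named probe went the same way. All 6 measured genes of a list of 28 read higher, with a median log2 difference of 0.90, and 4 of them passed 1.5-fold. For this list and those below, the shares over all genes were 44.5% higher and 10.8% at least 1.5-fold higher. H2-Q10, a secreted class I chain known from liver, read 0.824 and 2.29 in Mxi1 +/+ and Mxi1 -/- (2.79-fold higher). H2-Bl, annotated as a transcribed pseudogene, read 6.63 and 12.7 (1.92-fold). H2-Q8 was 1.82-fold higher and H2-T24 1.97-fold higher. H2-T10, also annotated as a transcribed pseudogene, read 17.2 and 21.95 (1.27-fold), and H2-M10.1, of a family known from vomeronasal neurons, read 0.962 and 1.00. The classical chains H2-K1 and H2-D1 had no named probe here. Class I heavy chain genes resemble each other closely, and how far a probe for one also binds RNA of another was not tested, since probe sequences were not used here.

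The list of class I-like genes showed no common direction. Of 8 measured class I-like genes 4 read higher and 4 lower (median log2 difference -0.09). The lipid-presenting Cd1d1 read 1.03 and 0.587 (1.75-fold lower) and Mr1, which presents vitamin B metabolites, read 0.626 and 0.203 (3.09-fold lower), both below the median level. Mill2 read 0.0551, under the floor, and 0.320, at least 3.13-fold higher, also below the median level. Fcgrt, the neonatal Fc receptor, which pairs with B2m and is known from kidney, read 21.1 and 24.1 (1.15-fold higher).

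In the transport and loading steps the larger differences lay with Tap1 and Tapbpl. Tap1, the partner subunit of Tap2, read 0.281 in Mxi1 +/+ and 0.890 in Mxi1 -/-, 3.16-fold higher (log2 1.66) at a level below the median. It exceeded Tap2 by 0.865 on the log2 scale, close to the technical SD of 0.973 for a difference between 1 dim and 1 brighter probe. The tapasin relative Tapbpl, a peptide editor, read 4.57 and 7.30 (1.60-fold higher). The general chaperones of the loading complex lay closer together or lower: Pdia3 was 1.09-fold higher, calreticulin (Calr) 1.08-fold lower and calnexin (Canx) read 4.05 and 2.68, 1.51-fold lower. The peptide-trimming enzyme Erap1 read 1.81 and 2.04. Over the 14 measured genes of that list 8 read higher and 6 lower, with a median of 0.04.

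Proteasome subunits divided by type. The immunoproteasome subunits, which replace the constitutive ones and favour peptides that fit class I, read higher: Psmb8 8.03 and 27.2 (3.38-fold), Psmb9 2.21 and 6.28 (2.84-fold) and Psmb10 5.82 and 11.1 (1.91-fold). Their constitutive counterparts lay within 1.15-fold, with Psmb5 at 53.1 and 57.6, Psmb6 at 33.7 and 38.4 and Psmb7 at 31.7 and 29.1. The proteasome activator Psme1 read 24.2 and 22.8, and the assembly factor Pomp 38.2 and 38.1. Psmb8, Psmb9, Tap1 and Tap2 lie side by side in the MHC, while Psmb10 lies elsewhere.

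Among transcription regulators of MHC genes 10 of 15 measured genes read higher, against 44.5% of all genes, with a median of 0.09. Irf1, which binds interferon response elements of class I genes, read 4.79 in Mxi1 +/+ and 12 in Mxi1 -/- (2.50-fold higher, at or above the median level). Ciita, the class II transactivator, read 0.454 and 1.20 (2.65-fold), and Stat2 and Irf2, both dim, were 1.57-fold and 1.54-fold higher. The Y box factor subunit Nfya read 0.431 and 0.256 (1.68-fold lower), while Nfyb read 3.91 and 3.80 and Nfyc 2.13 and 2.25. Nlrc5, the class I transactivator, had no named probe here. Upstream of them, the interferon list had 8 of 15 genes higher and 7 lower (median 0.04). The receptor chain Ifngr1 read 1.53 and 1.18 (1.3-fold lower), Ifngr2 1.42 and 1.38, and Jak1 35.3 and 36.2. Only Ifnb1 (0.122 and 0.337, 2.75-fold) and the feedback inhibitor Socs3 (0.307 and 0.762, 2.48-fold) passed 1.5-fold with both readings above the floor, both below the median level.

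**Figure D4:**
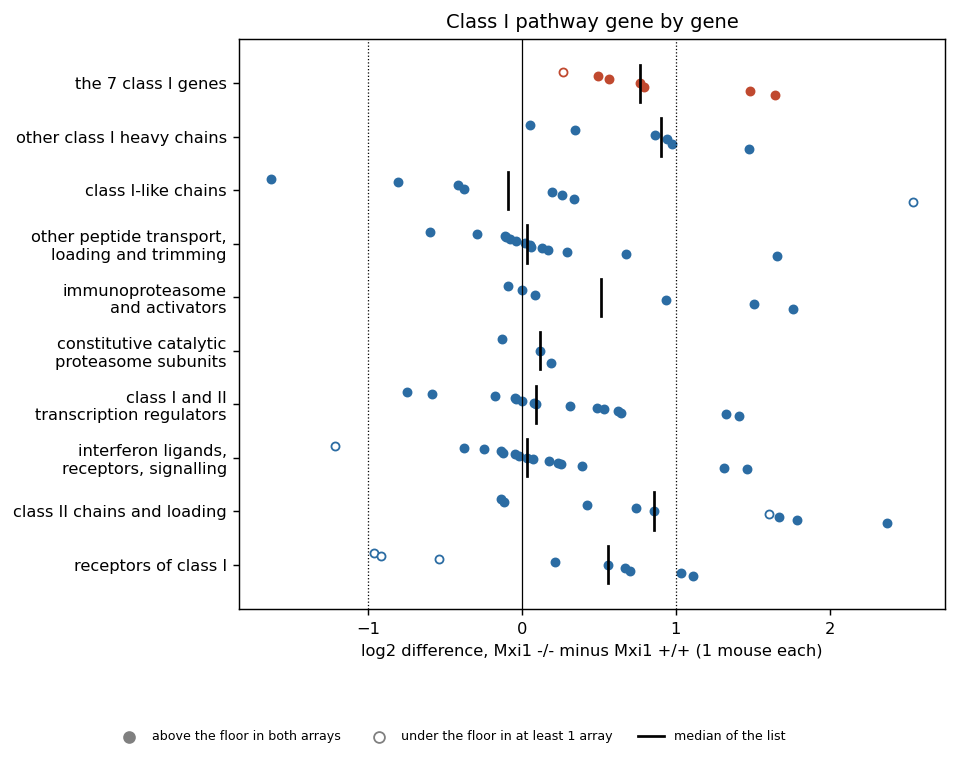
Log2 difference, Mxi1 -/- minus Mxi1 +/+ (x axis), of each measured gene by list (rows); filled points are above the noise floor in both arrays, open points are under it in at least 1, black bars are list medians and dotted lines mark 2-fold. The medians of the 7 members (0.77), the other heavy chains (0.90) and the class II genes (0.86) lie to the right, and those of the interferon (0.04) and loading lists (0.04) lie near 0.

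The class II list, whose molecules present peptides taken up from outside, had 9 measured genes with a median of 0.86. Of the 8 above both floors 6 were higher and 2 lower, and H2-DMb2 lay under both floors. The classical chains H2-Aa and H2-Eb1 were 1.82-fold and 3.19-fold higher and the loading chains H2-DMa and H2-DMb1 3.45-fold and 5.17-fold higher. Cathepsin S (Ctss) was 1.67-fold higher, and H2-Oa read 0.994 and 0.903.

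Position in the MHC was examined because 6 members lie there. Between Tapbp and H2-M3 in the RefSeq gene order, 89 measured genes were found. Of these, 21 encode MHC chains, TAP, tapasin or the Psmb8 and Psmb9 subunits. They include the 6 members, and MHC genes had been seen to read higher before the choice, so their values only describe. The 21 had a median of 0.98. At least 1.5-fold higher were 15 of them, against 10.8% of all genes, and 0 were as far lower. On the downward side, 88.4% of all genes had a difference at least as high as that of Canx, 1.51-fold lower. Of the 19 among them above both floors 18 read higher and 1 lower. The other 68 genes in the same interval had a median of 0.07, with 11 at least 1.5-fold higher and 2 as far lower. In the brighter set, 12 MHC genes had a median of 1.21, with 10 of them at least 1.5-fold higher, against 2.41% of all brighter genes. The 47 other genes of the brighter set had 21 higher and 26 lower and a median of -0.04, and 1 passed 1.5-fold upward. That gene was Ubd, an interferon-inducible ubiquitin-like modifier, which read 1.44 and 5.68 (3.94-fold higher) and is named after its value was seen. The complement gene C2 was the 1 that passed 1.5-fold downward, at 1.66 and 1.04. The part of position in the class I differences was not tested.

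Receptors that read class I were dim. Of 9 measured receptor genes 6 read higher and 3 lower, against 44.5% of all genes higher, and all 9 stayed below 1 in both arrays. Klrd1 and Klrc1, a pair that recognises the H2-T23 product, read 0.178 and 0.277 in Mxi1 +/+ and 0.123 and 0.147, both under the floor, in Mxi1 -/-. Cd8b1, a chain of the CD8 coreceptor, read 0.203 and, under the floor, 0.104. Klrc2 (2.05-fold), Klra1 (2.16-fold), Klrk1 (1.59-fold) and Cd160 (1.63-fold) read higher, between 0.200 and 0.706. Cd8a had no named probe here.

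Marker lists of cells that carry much class I were set beside the members. Counts are of markers above both floors, and medians and summed intensities are over all measured markers. Of all measured genes 44.5% read higher. T cell markers were higher in 4 and lower in 4 of 8 (median -0.01), with a sum of 7.92 in Mxi1 +/+ and 7.88 in Mxi1 -/-. The T cell receptor component Cd3e read 0.697 and 0.689. Pan-leukocyte markers were higher in 5 of 6 (median 0.09), with sums of 6.11 and 6.55. Of these Cd52 read 2.42 and 2.89, while Ptprc, CD45, read 0.448 and, under the floor, 0.136. Dendritic cell markers had 4 of 6 higher (median 0.07) and sums of 11.6 and 11.3. NK cell markers were higher in 3 of 4 (median 0.67) with sums of 1.24 and 1.79, and none of the 7 measured exceeded 0.434 in either array.

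Macrophage and B cell lists had higher sums in Mxi1 -/-, carried by a few genes. Macrophage and monocyte markers were higher in 7 of 8 (median 0.28), with sums of 32.5 and 44.0. The complement genes C1qa (1.57-fold higher), C1qb (13.1 and 19.4) and C1qc (5.43 and 6.65) made up most of that gap. The lysozyme Lyz2 read 3.72 and 3.77, Mrc1 was 1.05-fold lower and the integrin Itgam at least 1.64-fold lower. B cell markers were higher in 5 of 5 (median 0.32), with sums of 7.73 and 10.42. The IgE receptor Fcer2a read 1.48 and 3.19 (2.15-fold higher), the B cell factor Pax5 was 2.06-fold higher and the kinase Blk at least 3.87-fold higher, both dim, while Cd79a read 4.07 and 4.22. Ms4a1, CD20, was at least 1.39-fold lower. The part of these immune cells in the class I readings was not tested.

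Markers of the kidney's own cells went both ways. Endothelial markers, whose cells also carry class I, were higher in 3 of 6 (median -0.10), with sums of 40.6 and 34.9. Endomucin (Emcn) read 18.6 and 10.7 (1.73-fold lower) and Pecam1 1.43 and 0.555 (2.57-fold lower), while the receptor Kdr read 9.86 and 12.8 (1.3-fold higher). Tubule markers were higher in 2 of 6 (median -0.10), with sums of 217 and 210. The proximal phosphate transporter Slc34a1 and the distal cotransporter Slc12a3 were each 1.20-fold higher, the water channel Aqp2 was 1.21-fold lower, and the dim nephron factor Pax8 was 2.09-fold lower. The part of these cells in the class I readings was not tested.

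Fat markers and most stratified epithelium markers read lower in Mxi1 -/-. Adipocyte markers had a median of -1.64 and sums of 412 and 214, and 5 of the 7 above both floors were at least 1.5-fold lower. To place that line, 88.4% of all genes had a difference at least as high as that of Canx, 1.51-fold lower. The brown fat genes Cidea and Ucp1 were 19.9-fold and at least 54.6-fold lower. Car3 was 6.76-fold and Fabp4 2.54-fold lower. The bright marker Lpl read 158 in Mxi1 +/+ and 126 in Mxi1 -/-, and Lep read 4.86 and 4.83. Neither Lpl nor Lep passed 1.5-fold. Stratified epithelium markers had 7 of 8 lower (median -2.1), with sums of 36.5 and 16.97, and 4 of the 8 were at least 1.5-fold lower. Among these were Sprr1a at 5.03-fold and Krt5 at 4.82-fold. The uroplakin Upk1b, the brightest marker of that list, read 9.77 and 10.01. Over the markers above both floors the median was -1.3. The part of fat and stratified epithelium in the class I differences was not tested.

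**Figure D5:**
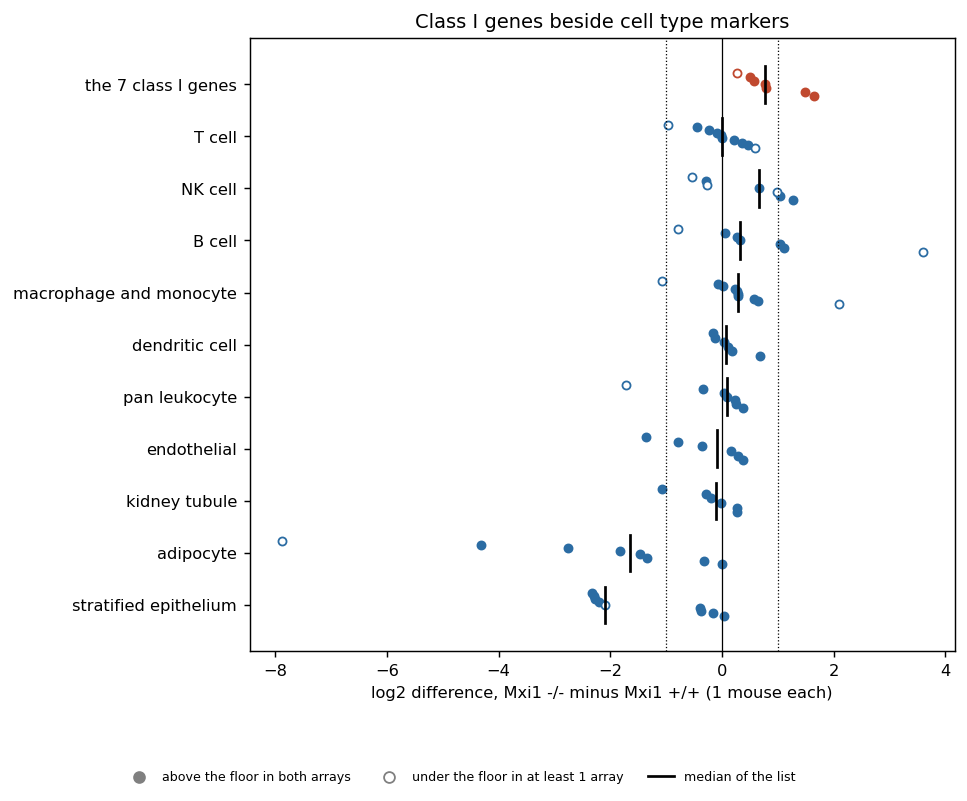
Log2 difference, Mxi1 -/- minus Mxi1 +/+ (x axis), of the 7 members (red) and of cell type markers (blue) by list; filled points are above the noise floor in both arrays, open points under it in at least 1, and black bars are medians. T cell (-0.01), endothelial (-0.10) and tubule (-0.10) medians lie near 0. The macrophage (0.28), B cell (0.32) and NK cell (0.67) medians lie to the right, and the adipocyte (-1.64) and stratified epithelium (-2.1) medians far to the left.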

How the data were processed

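RNA was purified on columns, treated with DNase and made into biotin-labelled cRNA with a kit for CodeLink arrays, per the labels' protocols. The deposited values are linear intensities, 1 per probe and array. The sources used here do not give the software, background correction or normalization behind them. Of 20289 probes, a platform table named 10349, and current symbols came from RefSeq (GRCm38.p6). The code -9999 was read as missing. The log2 of each value was taken with no pseudocount and centred on its array's median, using the 19663 probes whose values exceeded 0 in both arrays. A gene with several probes took the one with the highest mean level. The floor was 3 times the root mean square of an array's values below 0. With 1 array per genotype no p-value was computed, and the number of arrays limits the precision.

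The members and lists were chosen with earlier results of these data known. Named genes were the members, genes of the pathway lists (not of the marker lists) past 1.5-fold with both readings above the floor, a fixed set of pathway genes, up to 4 of the brightest markers per list, and the 3 genes nearest to the members' median difference. Alternatives were other centring and normalization, a pseudocount, probe averaging, and other floors, fold lines and level filters. Exceptions, given for context, were H2-T10, H2-M10.1, Mill2, Fcgrt, Erap1, Psme1, Pomp, Nfyb, Nfyc, Ifngr1, Ifngr2, Jak1, H2-Oa, Klrd1, Klrc1, Cd8b1, H2-DMb2, Ubd, C2 and, among markers, Ptprc, Mrc1, Itgam, Pax5, Blk, Ms4a1, Pecam1, Pax8, Cidea, Ucp1, Lep and Krt5. The script for differences was tested on simulated data. Tools were Python 3.11.15 with NumPy 2.4.6, pandas 2.3.3, matplotlib 3.10.9 and statsmodels 0.14.6.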

Additional observations from a re-analysis of the deposited data

How the results depend on the processing

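The median log2 difference of the members, 0.77 as reported, was 0.83 after quantile normalization and 0.83 after lowess on level. It was 0.76 with values set to the floor and, added after seeing the data, 0.78 over the 6 members above both floors. Averaging probes could not change it, since each member has 1 named probe. Leaving out the centring could hardly change it, since the centring shift between the arrays was -0.00071 on the log2 scale. Other sets were also added after seeing the data. The members with the other heavy chains, Tap1 and Tapbpl, 15 genes picked with their values known, gave 0.80. With every measured heavy chain, class I-like and loading gene, 35 in all, the median was 0.261. Adding the array median as a pseudocount, which by construction shrinks the differences of dim genes, moved it to 0.553. Under that pseudocount 0 members passed 2-fold in place of 2, with H2-Q7 at 0.70, H2-T23 at 0.34 and Tapbp at 0.03. Those were the 3 of 42 member values that moved by more than the technical SD of 0.167, and none of the 42 changed sign. The 42 include the values with probes averaged and without centring, which could not or could hardly move. At 1.5-fold 4 members passed and at 3-fold 1 passed. With the floor at 2 or 5 times, 7 or 5 members lay above both floors. The share of all genes at least 2-fold higher was 0.558% at or above the median level, 5.77% with no level filter and 0.326% at or above the 75th percentile of level. No paired analysis was possible because each genotype has 1 mouse, and for the same reason no replicate could be left out. Dim readings limit H2-Q7, H2-T23, Tapbp and Tap1.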
